A study of Mus musculus with 17 samples.

Results

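The Hox genes of the mouse encode homeodomain transcription factors, and 48 probe sets of the array carried a single symbol of this family (Hoxa, Hoxb, Hoxc or Hoxd followed by a number), of 45101 probe sets in all. They covered 33 of the 18193 genes named by a single symbol, 9 in the A cluster, 9 in the B cluster, 7 in the C cluster and 8 in the D cluster. Members were chosen by symbol alone, and probe sets with several symbols (3) or of antisense and opposite-strand transcripts (5) were left out. Skeletal cells of female C57BL/6 mice had been sorted from femoral fracture callus at day 7 and from uninjured femora and measured on 17 Affymetrix arrays. The callus arrays came from ovariectomized mice given estradiol (OVX + E2, 2 arrays), from ovariectomized mice (OVX, 2), from sham-operated mice (sham, 4), from mice whose title and treatment labels disagreed on the ovary surgery (2), and from fractured mice with no ovary surgery stated (2). The uninjured arrays came from OVX mice (2) and sham mice (3). By the methods, surgery on the ovaries was done in mice aged 8 weeks and the femur was fractured 6 weeks later. Each state was sorted into skeletal stem cells (mSSC, 9 arrays) and their progeny, the bone, cartilage and stromal progenitors (mBCSP, 8 arrays), with cells that carried the blood markers CD45 and Ter119 or the endothelial marker Tie2 gated out. The labels do not say how many mice went into an array, or whether an mSSC and an mBCSP array of the same state shared mice.

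Hox genes lie in clusters in which the order of the genes follows the order of their expression along the body axis, and genes at the same place in different clusters form a paralog group. In the limb the posterior groups mark position along the proximal-distal axis, with group 10 required for the upper segment that holds the femur, group 11 for the lower segment and group 13 for the foot. Adult skeletal cells keep much of the Hox pattern of the place where they arose, so their Hox genes serve as a record of positional identity.

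On the mouse assembly GRCm38.p6 all 33 genes were found in the RefSeq annotation. The A cluster lay at chr6:52162417-52260880, the B cluster at chr11:96194316-96368254, the C cluster at chr15:102921131-103036856 and the D cluster at chr2:74668225-74765142. Hoxc10 (chr15:102966796-102971898), Hoxc9 (chr15:102977032-102984444), Hoxc8 (chr15:102990539-102994275) and Hoxc6 (chr15:102998226-103011882), all called below, are neighbours in the C cluster. Of the 7 genes called between callus and uninjured bone, the RefSeq promoter table held 2, Hoxa10 with a pair of start sites and Hoxd8. Their promoters are shown because these genes were called together, from 250 bases before to 50 bases after the start, in 5′ to 3′ direction, with capitals where a motif searched was found.
Hoxa10, upstream start, chr6:52240805-52241104, minus strand: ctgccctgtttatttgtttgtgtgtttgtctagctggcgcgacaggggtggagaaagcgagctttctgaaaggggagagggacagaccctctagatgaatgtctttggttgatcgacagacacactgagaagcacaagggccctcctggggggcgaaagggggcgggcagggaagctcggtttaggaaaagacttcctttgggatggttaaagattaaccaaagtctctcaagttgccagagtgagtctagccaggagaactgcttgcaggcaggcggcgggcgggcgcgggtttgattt
Hoxa10, downstream start, chr6:52234890-52235189, minus strand: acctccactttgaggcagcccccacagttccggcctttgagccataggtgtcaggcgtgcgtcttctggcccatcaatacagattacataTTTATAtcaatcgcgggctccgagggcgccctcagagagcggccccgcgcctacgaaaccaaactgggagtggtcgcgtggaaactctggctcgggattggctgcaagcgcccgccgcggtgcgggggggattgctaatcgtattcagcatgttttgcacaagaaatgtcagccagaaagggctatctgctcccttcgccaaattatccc
Hoxd8, chr2:74704365-74704664, plus strand: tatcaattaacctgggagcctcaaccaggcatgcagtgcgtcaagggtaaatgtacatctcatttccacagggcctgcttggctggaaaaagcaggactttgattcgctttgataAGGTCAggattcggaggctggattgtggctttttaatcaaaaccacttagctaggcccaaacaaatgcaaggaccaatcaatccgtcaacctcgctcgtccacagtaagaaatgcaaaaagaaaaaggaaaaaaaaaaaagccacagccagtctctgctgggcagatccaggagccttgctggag
The capitals in the downstream Hoxa10 promoter mark the TATA box TATAAA on the opposite strand, which 13.6% of 32851 promoters of this length and 2 of 21 Hox promoters held on either strand. Those in the Hoxd8 promoter mark AGGTCA, a core site of retinoic acid receptors, held by 16.3% of all promoters and by 6 of 21 Hox promoters. The site of a Hox protein with its partner Pbx (TGATNNAT) was in 8.85% of all and 3 of 21 Hox promoters, and TGACAG, the Meis site, in 19.2% of all and 2 of 21. Neither was in the 3 promoters printed. Both strands were searched, and a match is no evidence of binding. The upstream Hoxa10 promoter held none of the 4 motifs. CG pairs numbered a median of 15 in the Hox promoters, against 7 in all promoters, with 12 and 21 in the upstream and downstream Hoxa10 promoters and 6 in the Hoxd8 promoter.

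The arrays did not form a uniform set. The sample titles used 3 sets of codes, called A (6 callus arrays), B (4 callus and 3 uninjured arrays) and C (2 callus and 2 uninjured arrays), and no source says whether these are batches. Rank correlations between arrays ran between 0.776 and 0.972 over all probe sets, and 0 pairs of arrays were identical. For several Hox genes, the callus mBCSP array of unstated surgery had more signal than all others, and its values are given after the comparisons. Markers of the sorted cells were checked against the labels. The mean log2 signal of 14 skeletal stroma markers, which include Prrx1, Pdgfra and Col1a1, was between 12.34 and 13.01 on the callus arrays and between 8.78 and 11.89 on the uninjured arrays, with the lowest values, 8.78 and 9.16, on both uninjured arrays of set C. The mean of 11 neutrophil markers was between 9.20 and 13.43 on the callus arrays and between 13.34 and 14.36 on the uninjured arrays, although the sort had gated out CD45. In such bulk samples fewer cells of a type and less RNA per cell cannot be told apart.

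Hox signal was present in all 4 clusters but did not cover all paralog groups. Signals were quantile-normalised between arrays. A probe set was taken as measured on an array when its log2 signal reached 7.20, the 40th percentile of all signals, and signals below log2 5.95, the 20th percentile, were set to that floor. Of the 48 Hox probe sets, 32 from 20 genes reached the filter level on at least 2 arrays and were tested. Hoxa3, Hoxa5, Hoxa7, Hoxa9, Hoxc6 and Hoxc9 reached it on 17 of 17 arrays with at least 1 probe set. Hoxa2, Hoxa13, Hoxb6, Hoxc13, Hoxd1, Hoxd3 and Hoxd12 reached it on 0 arrays. Hoxa4, Hoxb1, Hoxb7, Hoxb9, Hoxd10 and Hoxd11 reached it on a single array each. By cluster, 6 of 9 A genes, 5 of 9 B genes, 6 of 7 C genes and 3 of 8 D genes were tested, and by paralog group 3 of 7 genes of groups 1 to 3, 9 of 12 of groups 4 to 8 and 8 of 14 of groups 9 to 13. A low signal on these arrays can also come from a poor probe set, so the absence of a gene was not established.

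**Figure D1:**
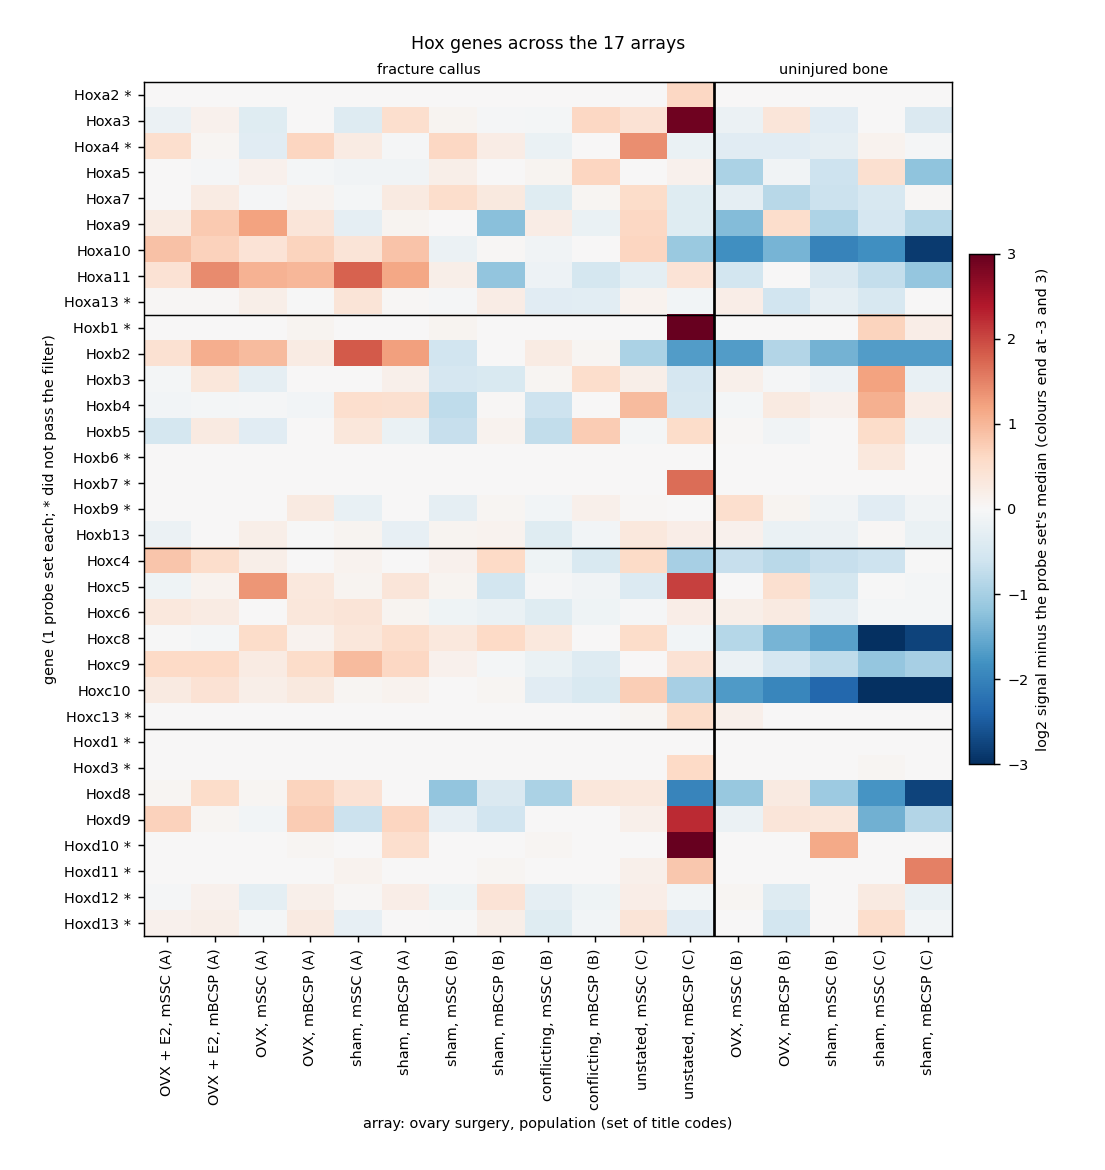
Log2 signal of the 33 Hox genes (rows, 1 probe set of highest mean each, ordered by cluster and paralog number) on the 17 arrays (columns, callus left of uninjured bone), shown as the difference from the probe set's median, with a star where the probe set shown did not pass the filter. Hoxa10, Hoxc8 and Hoxc10 were below their median on all 5 uninjured arrays, and the mBCSP callus array of unstated surgery in set C had the highest signal of Hoxa3, Hoxb1, Hoxb7, Hoxd9 and Hoxd10.

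The first comparison asked how the Hox genes differed between cells of fracture callus and cells of uninjured bone. Callus cells had more signal of Hoxc10, Hoxc8 and Hoxa10, by estimated factors of 6.78, 4.68 and 3.65, and smaller increases of Hoxd8, Hoxc9, Hoxb2 and Hoxc6. In all, 7 of 32 Hox probe sets were higher in callus and 0 lower (adjusted p under 0.05), which is 21.9%, beside 36.3% of all 33064 probe sets tested (17.7% higher and 18.6% lower). Of the 7, Hoxb2 and Hoxc6 (1427362_x_at) were below the filter level on all uninjured arrays and entered the test through callus arrays alone. At an unadjusted p under 0.05 there were 10 Hox probe sets, beside 45.2% of all. The share of Hox probe sets called was thus no larger than that of the array as a whole.

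Hoxc10, a group 10 gene of the limb and the lumbar region, had log2 signals of 10.59 at the lowest, 11.68 at the median and 12.33 at the highest on the 12 callus arrays. On the 5 uninjured arrays it had 9.89 and 9.64 in OVX mSSCs and mBCSPs, 9.24 in sham mSSCs of set B, and 7.27 and 7.03 in sham mSSCs and mBCSPs of set C. Callus and uninjured arrays did not overlap, as was so for 3 of 32 Hox probe sets in this direction and for 6.32% of all probe sets. The log2 difference was 2.76 (SE 0.384, 95% interval 1.95 to 3.57; limma, adjusted p = 4.55e-05). Because set A held no uninjured array, the estimate rests on sets B and C, where the difference was 1.82 (4 against 3 arrays) and 4.31 (2 against 2 arrays).

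Hoxc8, a gene of the thoracic and limb-level region, had 9.53 at the lowest, 9.93 at the median and 10.22 at the highest on the callus arrays. The uninjured arrays had 8.76 and 8.23 in OVX mSSCs and mBCSPs, 8.0 in sham mSSCs of set B, and 6.28 and 6.84 in sham mSSCs and mBCSPs of set C. No callus array reached down to the uninjured ones, and the callus arrays spanned far less (SD 0.263) than the uninjured arrays (SD 1.03). The log2 difference was 2.23 (SE 0.298, adjusted p = 3.15e-05), with 1.59 within set B and 3.28 within set C.

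Hoxa10, the group 10 gene of the A cluster, had 8.81 at the lowest, 10.31 at the median and 10.80 at the highest on the callus arrays. The uninjured arrays had 8.08 and 8.53 in OVX mSSCs and mBCSPs, 7.91 in sham mSSCs of set B, and 8.07 and 7.06 in sham mSSCs and mBCSPs of set C. The lowest callus value, from the mBCSP array of unstated surgery, lay close above the highest uninjured one, and the groups did not overlap. The log2 difference was 1.87 (SE 0.294, adjusted p = 1.35e-04), with 1.69 within set B and 2.12 within set C.

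**Figure D2:**
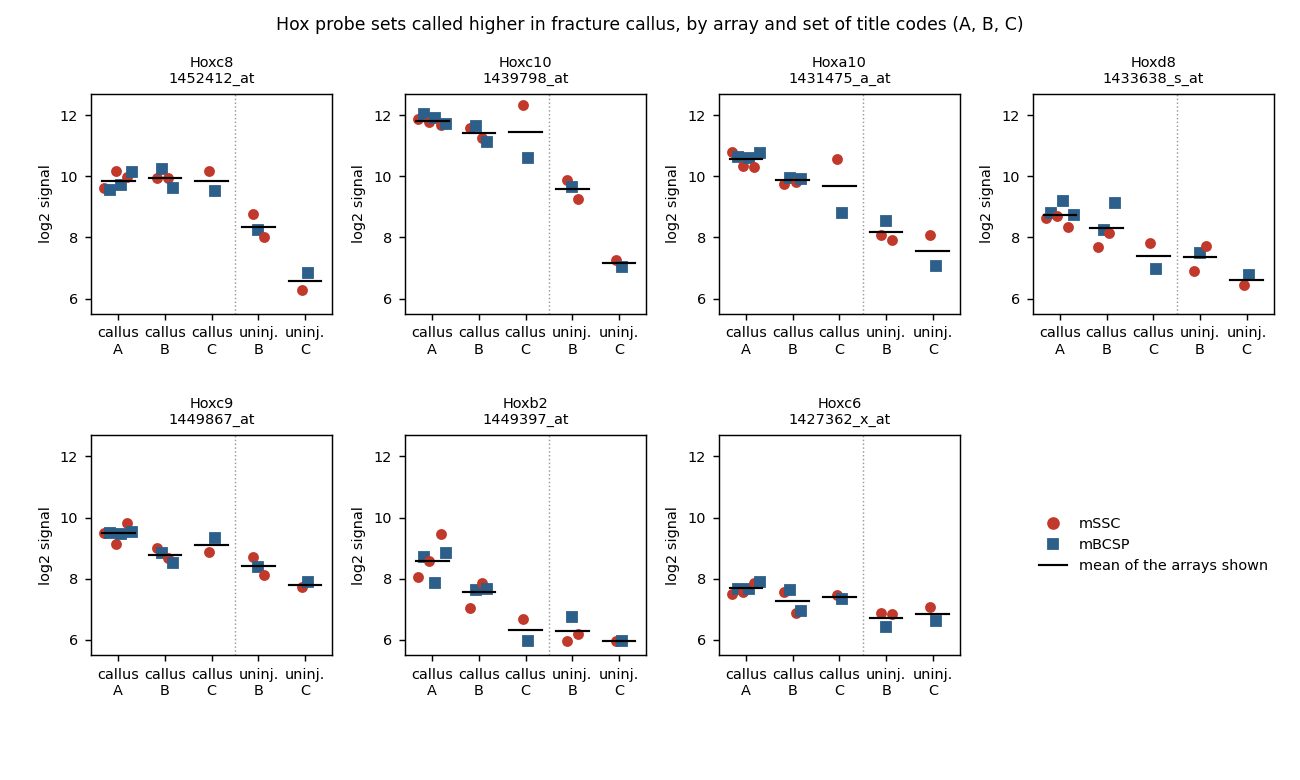
Log2 signal (vertical axis) of the 7 Hox probe sets called higher in callus, 1 point an array, with callus arrays of sets A, B and C left of uninjured arrays of sets B and C, circles for mSSCs, squares for mBCSPs and lines for the mean of the arrays shown. For Hoxc10, Hoxc8 and Hoxa10 all callus points lie above all uninjured points, while for the other 4 the groups overlap; levels of different panels are not comparable.

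The remaining 4 called probe sets overlapped between the groups. Hoxd8, a gene near the middle of the D cluster, had 6.97 at the lowest, 8.48 at the median and 9.19 at the highest on the callus arrays, against 6.44, 6.89 and 7.72 on the uninjured arrays, with a log2 difference of 0.84 (SE 0.262, adjusted p = 0.0185). The Hoxd8 probe set of higher mean signal, 1431099_at, stood at 0.59 (adjusted p = 0.339) and was not called. Between sham callus and sham uninjured bone alone the called probe set differed by 0.08 and was no longer called. Hoxc9, which neighbours Hoxc10, had 8.51, 9.23 and 9.83 on the callus arrays and 7.72, 8.13 and 8.72 on the uninjured arrays, with a difference of 0.71 (SE 0.222, adjusted p = 0.0197). With ovary state as a further term in the fit its difference was 0.28 and no longer called.

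Hoxb2, a gene of the hindbrain and the anterior trunk, had 5.95 at the lowest, 7.86 at the median and 9.45 at the highest on the callus arrays, against the floor on 3 of 5 uninjured arrays and 6.75 and 6.20 on the others. The log2 difference was 0.92 (SE 0.307, adjusted p = 0.0263), on a scale shortened by the floor. Its callus signal differed between the sets, with 7.87 to 9.45 in set A, 7.05 to 7.86 in set B and 5.95 to 6.67 in set C. Hoxc6, a gene of the cervical to thoracic level, was called with its probe set 1427362_x_at alone, which had 6.88, 7.56 and 7.90 on the callus arrays and 6.42, 6.85 and 7.08 on the uninjured arrays (log2 difference 0.55, SE 0.196, adjusted p = 0.0387). Its other probe sets stood at 0.19 for 1427361_at and -0.12 for 1427454_at (adjusted p = 0.614 and 0.653), so the direction depended on the probe set. Single arrays decided the calls of Hoxc6, Hoxb2 and Hoxd8. Left out in turn, 6 arrays ended the Hoxc6 call, 4 the Hoxb2 call and 2 the Hoxd8 call, and none those of Hoxc10, Hoxc8, Hoxa10 and Hoxc9.

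The 25 Hox probe sets that were not called had estimates between -0.64 and 0.77, a range that also holds those of the called Hoxc9 and Hoxc6. Over all 32, the median log2 difference was 0.44, beside -0.03 over all probe sets tested, and 26 of 32 estimates (81.2%) were above 0, beside 47.9% of all. By cluster, the estimate was above 0 for 11 of 11 A probe sets (median 0.48), 2 of 7 B probe sets (median -0.25), 9 of 10 C probe sets (median 0.54) and 4 of 4 D probe sets (median 0.58). By paralog group, 5 of 7 were above 0 in groups 1 to 3, 12 of 16 in groups 4 to 8 and 9 of 9 in groups 9 to 13. These estimates are not independent, since probe sets of a gene share transcripts and all share the arrays. None of the 4 probe sets of the B cluster genes Hoxb3 and Hoxb4 was called. Within set B all callus arrays were above all uninjured arrays for 8 of 32 probe sets, beside 21.8% of all probe sets tested, and below for 0, beside 22.7% of all. Within set C they were above for 13 of 32, beside 20.3% of all, and below for 1, beside 25% of all.

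**Figure D3:**
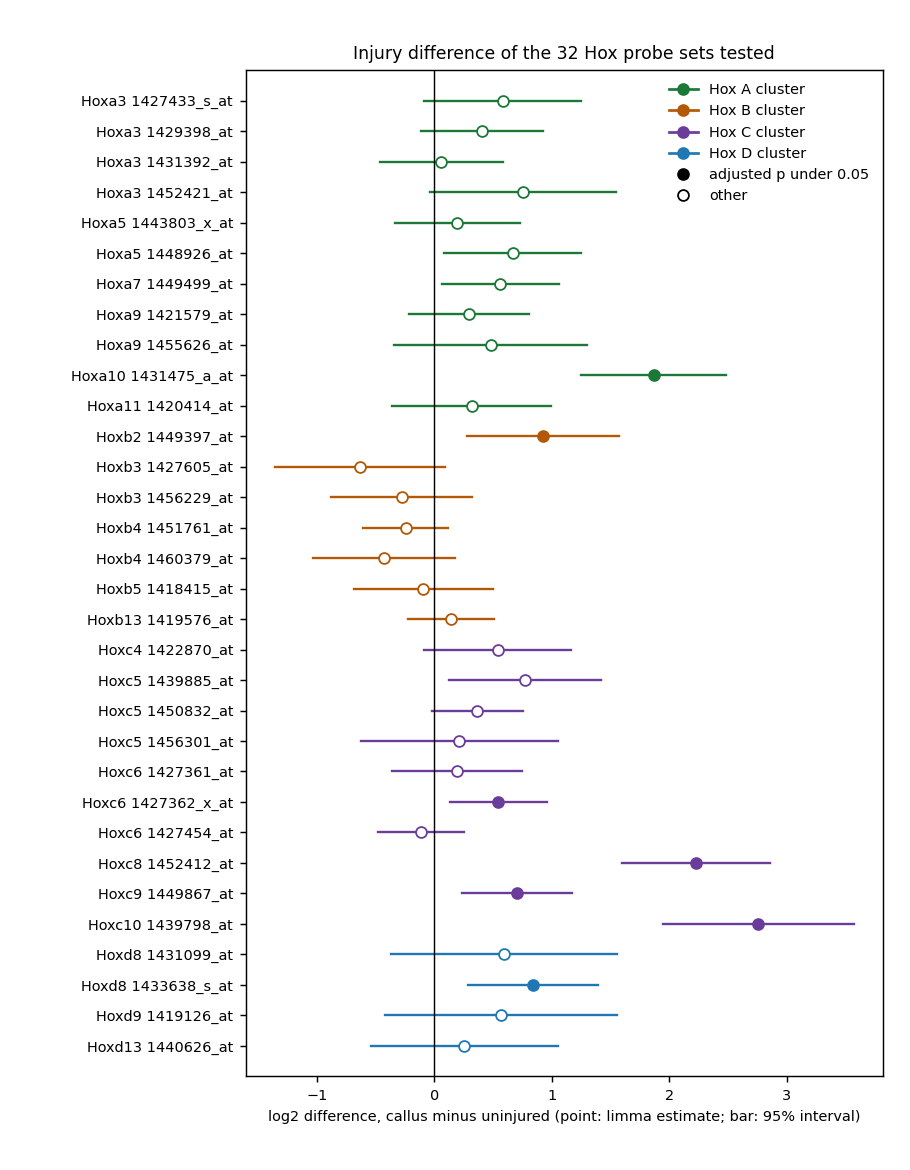
Log2 difference between callus and uninjured arrays (horizontal axis, limma estimate with 95% interval) for the 32 Hox probe sets tested, coloured by cluster, with filled points at an adjusted p under 0.05. Hoxc10 at 2.76, Hoxc8 at 2.23 and Hoxa10 at 1.87 stand apart from the other 29, whose estimates lie between -0.64 and 0.92.

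Hoxa11 and Hoxa9, posterior genes of the A cluster, were not called with injury, and their callus signals differed between the sets of arrays, a pattern chosen after the values were seen. Hoxa11, the group 11 gene, had 8.37 to 9.71 on the callus arrays of set A, against 6.75 to 8.10 on those of set B, 7.64 to 8.33 on those of set C, and 6.78 to 7.93 on the uninjured arrays. Hoxa9 (1421579_at) had 9.11 to 9.89 on the callus arrays of set A, against 8.12 to 8.40 in set B. Set C callus arrays had 8.02 to 9.19 of it. For these probe sets the set A callus arrays stood above those of set B without overlap, while the Hoxa9 probe set of higher mean signal, 1455626_at, overlapped, with 9.07 to 10.56 in set A, 8.10 to 9.57 in set B and 8.99 to 9.98 in set C. The pattern was not particular to these genes. Hoxa10 had 10.30 at the lowest in set A and 9.95 at the highest in set B. Gaps were narrower for Hoxc10 (11.66 and 11.65), Hoxc9 (9.13 and 9.01), Hoxb2 (7.87 and 7.86) and Hoxc6 (1427454_at, 8.68 and 8.56). The share of all probe sets with this pattern was not counted. Set A is the set of the OVX + E2 arrays and has no uninjured array, so the set and the injury response of its arrays cannot be told apart. Hoxd13, the most posterior D gene, reached the filter level on 2 arrays with 1440626_at, at 7.91 in sham mBCSPs of set A and 7.53 in mSSCs of unstated surgery, and was at the floor on 12.

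**Figure D4:**
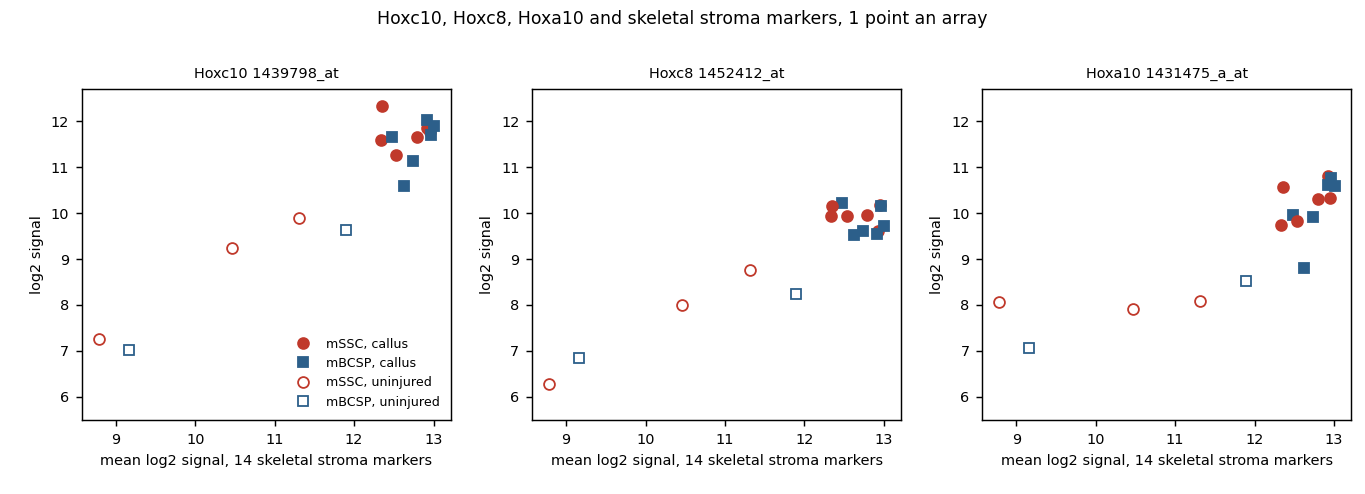
Log2 signal of Hoxc10, Hoxc8 and Hoxa10 (vertical axes) against the mean log2 signal of 14 skeletal stroma markers (horizontal axes), 1 point an array, filled for callus and open for uninjured bone. The 12 callus points lie at 12.34 or more on the horizontal axis, and the 2 uninjured arrays of set C at 8.78 and 9.16 hold the lowest Hoxc10 and Hoxc8 signals. Hoxa10 is at 8.07 and 7.06 on these, and at 7.91 to 8.53 on the other uninjured arrays.

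The Hox genes called in callus moved beside markers of cell type. Of all probe sets tested, 17.7% were called higher and 18.6% lower in the same fit. Of the 14 skeletal stroma markers, 11 were higher in callus and 0 lower (median log2 difference 2.16), as were 11 of 11 chondrocyte markers (2.89) and 6 of 6 osteoblast markers (2.51). Of 13 macrophage markers 8 were lower (median -1.50), of 11 neutrophil markers 5 (-1.36) and of 12 blood stem and progenitor markers 8 (-1.22), with 0 higher in each list. On the uninjured arrays the stroma mean and Hoxc10 were 11.31 and 9.89 in OVX mSSCs and 11.89 and 9.64 in OVX mBCSPs. They were 10.46 and 9.24 in sham mSSCs of set B, and 9.16 and 7.03 and 8.78 and 7.27 in sham mBCSPs and mSSCs of set C. Both were lowest in set C, but their order was reversed within the OVX pair and within the set C pair. Hoxa10 had 8.08, 8.53, 7.91, 7.06 and 8.07 on the same arrays in this order. The part of these marker differences in the Hox result was not tested.

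Other genes of limb identity moved in the same comparison. Of 25 limb identity and patterning factors tested, 12 were higher in callus and 0 lower, with a median of 0.75, beside 17.7% higher and 18.6% lower of all probe sets. Shox2, a factor of the upper limb segment, differed by 3.60 (SE 0.341), Tbx15, a factor of limb and trunk skeleton, by 2.76 (SE 0.305), Prrx2, a factor of limb mesenchyme, by 2.70 (SE 0.289), and Irx5, a factor of limb bud patterning, by 2.68 (SE 0.313). The largest of their adjusted p-values was 8.84e-06 (limma). Shox2 had 9.94 to 12.43 on the callus arrays and 6.13 to 9.53 on the uninjured arrays, with no overlap. Pitx1 and Tbx4, which mark the hindlimb and were singled out as a check of the labelled tissue after their values were seen, stood at 0.54 and 0.01 (adjusted p = 0.0946 and 0.981). Pitx1 had 8.68 to 10.26 on the callus arrays and 8.0 to 9.05 on the uninjured ones, above the filter level on 17 of 17 arrays. Tbx4 had 5.95 to 8.65 on the callus arrays and 5.95 to 6.71 on the uninjured ones, below the filter level on all 5 of these. Tbx5, the forelimb factor of the same list, stood at 0.24 (limma adjusted p = 0.321). It had 6.49 to 7.77 on the callus arrays and 6.42 to 6.95 on the uninjured ones. Tbx5 reached the filter level on 7 arrays and Tbx4 on 6, so Tbx4 was no more widely measured than the forelimb factor.

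The partners and regulators of Hox proteins were mixed. Calls were common in this fit, with 17.7% of all probe sets tested higher and 18.6% lower, so a call in these lists need not be particular to them. Of 10 TALE cofactors, the homeodomain proteins that bind DNA with Hox proteins, 2 were higher and 1 lower in callus, with Meis2 at 2.14 (SE 0.385, adjusted p = 4.16e-04), Pbx3 at 0.54 (adjusted p = 0.0237) and Pbx2 at -1.12 (SE 0.219, adjusted p = 7.92e-04). Of 24 Polycomb and Trithorax genes, which keep Hox clusters silent or active, 2 were higher and 9 lower, with Suz12 (-1.80) and Ezh2 (-1.29), core parts of the silencing complex PRC2, and Ctcf (-1.32), which sets boundaries within the clusters, among the lower ones and Phc2 (1.07) among the higher. Of 15 upstream signals 5 were higher and 1 lower. Aldh1a3, which makes retinoic acid, differed by 4.12 (SE 0.579), Rarg, a receptor for it, by 2.49 (SE 0.379), Cyp26b1, which degrades it, by 2.04 (SE 0.244), and Crabp2, which carries it, by 1.64 (SE 0.296). The 1 lower gene was Aldh1a1, another enzyme that makes retinoic acid, at -2.54 (SE 0.815, limma adjusted p = 0.0221), so the retinoic acid genes did not move one way.

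The next comparison asked whether stem cells and their progeny differed in Hox signal within a state. None of the 32 Hox probe sets was called between mSSCs and mBCSPs (limma on 8 pairs of arrays), as was so for 0 of 33064 probe sets, or 0% of all. At an unadjusted p under 0.05 there was 1 Hox probe set, beside 9.12% of all. This was Hoxc5 (1439885_at), a group 5 gene, at 0.53 (SE 0.225, limma adjusted p = 0.535). Its mSSC array was higher in 5 pairs and lower in 1, and another Hoxc5 probe set, 1456301_at, stood at -0.21. Hoxa3, an anterior gene, had a log2 difference of -0.59 (1452421_at, adjusted p = 0.547) and Hoxd9 of -0.54 (adjusted p = 0.578), and for both the pair furthest from 0 was that of unstated surgery, with differences of -2.48 and -2.09.

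The genes called with injury were not called between the populations. Hoxc10 was higher in mSSCs in 4 of 8 pairs and lower in 4, with differences of -0.17 to 1.74, Hoxc8 higher in 5 and lower in 3, with -0.56 to 0.63, and Hoxa10 higher in 3 and lower in 5, with -0.47 to 1.76. Endothelial markers, whose receptor Tie2 the sort had gated out, had means of 7.64 to 8.70 on the mSSC arrays and 8.33 to 11.97 on the mBCSP arrays. The 4 D cluster probe sets all had estimates below 0, between -0.54 and -0.10, and none passed the test. Whether the injury difference itself differed between mSSCs and mBCSPs was tested as an interaction, and 0 of 32 Hox probe sets and 0 of all probe sets were called. At an unadjusted p under 0.05 there were 2 Hox probe sets, beside 4.47% of all, namely Hoxb4 (1451761_at, -0.60, SE 0.241) and Hoxb5 (-0.98, SE 0.40), and Hoxa9 (1455626_at) followed at 1.16 (SE 0.585), all at a limma adjusted p of 0.973.

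The last comparisons asked whether ovary surgery or estradiol went with a change of Hox signal in callus. None of the 32 Hox probe sets was called in OVX + E2 against OVX callus, in OVX + E2 against sham callus or in OVX against sham callus, beside 0.00605%, 0.00605% and 0% of all probe sets. With the set of title codes as a term these contrasts rest on the 6 arrays of set A, a single mSSC and mBCSP array per state, so their errors come from how the mSSC and mBCSP difference varies between pairs and not from replicate mice. Hoxc10 had 11.86 and 12.03 in OVX + E2 mSSCs and mBCSPs, 11.77 and 11.89 in OVX and 11.66 and 11.70 in sham callus of set A. Hoxc8 had 9.60 and 9.55 in OVX + E2, 10.17 and 9.72 in OVX and 9.96 and 10.15 in sham. Hoxa10 had 10.80 and 10.62 in OVX + E2, 10.32 and 10.59 in OVX and 10.30 and 10.77 in sham. Across these states each of the 3 genes varied by less than its difference between callus and uninjured bone.

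The ovary contrasts with the smallest p gave no call. Between OVX + E2 and OVX callus they were Hoxd13 (1440626_at, -0.83, SE 0.592), at the floor in both OVX + E2 arrays, Hoxc5 (1456301_at, -0.84, SE 0.625) and Hoxc4 (0.58, SE 0.441), with 0 Hox probe sets at an unadjusted p under 0.05, beside 2.28% of all. Between OVX + E2 and sham callus Hoxc5 (1439885_at) stood at -1.03 (SE 0.45), the only Hox probe set at an unadjusted p under 0.05 (2.81% of all), Hoxa3 (1429398_at) at -0.59 (SE 0.30) and Hoxb2 at -0.75 (SE 0.429). That Hoxc5 probe set had 6.64 and 6.11 in OVX + E2 mSSCs and mBCSPs, below the filter level. Between OVX and sham callus Hoxb2 stood at -0.93 (SE 0.429, 95% interval -1.87 to 0.01), Hoxa3 (1429398_at) at -0.54 (SE 0.30) and Hoxc6 (1427361_at) at -0.56 (SE 0.33), with 0 at an unadjusted p under 0.05 (2.48% of all). The limma adjusted p was 1 for each of these. Hoxb2 had 8.07 and 8.72 in OVX + E2 mSSCs and mBCSPs, 8.57 and 7.87 in OVX, and 9.45 and 8.85 in sham callus of set A, but 7.05 and 7.62 in sham callus of set B, below the OVX arrays. Without the term for the set its OVX against sham difference was -0.02. The 2 OVX + E2 arrays had macrophage marker means of 9.88 and 9.46, against 8.49 and 7.83 on the OVX arrays and 8.96 and 8.30 on the sham arrays of set A. None of the 13 macrophage markers was called in OVX + E2 against OVX callus or against sham callus. The part of these marker values in any Hox value was not tested.

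**Figure D5:**
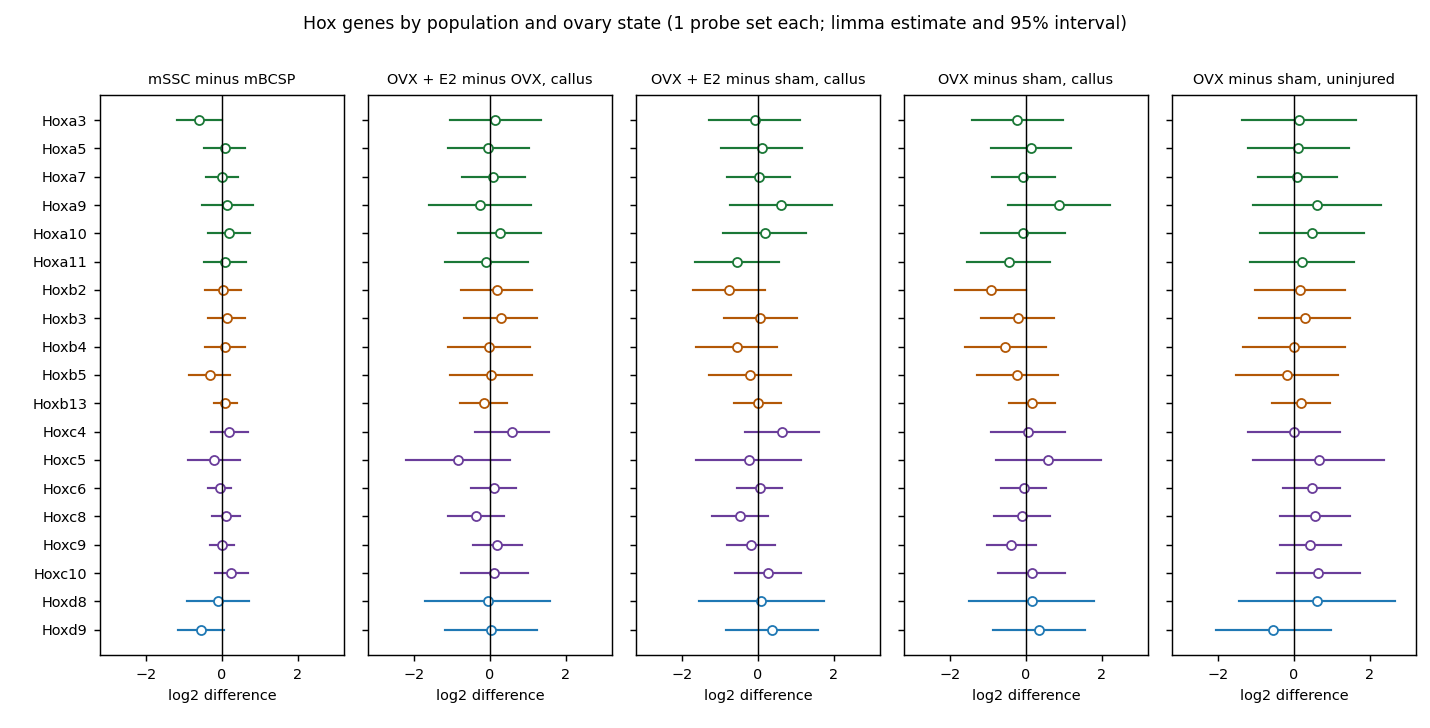
Log2 differences (horizontal axes, limma estimate with 95% interval) of the 19 Hox genes tested with their probe set of highest mean, coloured by cluster, for mSSC minus mBCSP, OVX + E2 minus OVX callus, OVX + E2 minus sham callus, OVX minus sham callus and OVX minus sham uninjured bone. None of the genes was called in these panels, and the intervals of the ovary panels are wider than those of the population panel.

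In uninjured bone, 0 of 32 Hox probe sets were called between OVX and sham, beside 0.0726% of all probe sets, and 0 had an unadjusted p under 0.05, beside 6.94% of all. The contrast rests on a single sham mSSC array of set B, and could not be estimated without it. Estimates were above 0 for 25 of 32 Hox probe sets (78.1%), beside 50.6% of all, so a lean above 0 was not particular to injury. By cluster they were above 0 for 10 of 11 A, 5 of 7 B, 9 of 10 C and 1 of 4 D probe sets. The smallest p-values were those of Hoxd8 (1433638_s_at) at -0.70 (SE 0.485, limma adjusted p = 0.905), Hoxc6 (1427454_at) at 0.47 (SE 0.337, adjusted p = 0.914) and Hoxc8 at 0.55 (SE 0.42, adjusted p = 0.925). Hoxc8 had 8.76 and 8.23 in OVX mSSCs and mBCSPs, against 8.0 in sham mSSCs of the same set and 6.28 and 6.84 in sham mSSCs and mBCSPs of set C. The stroma marker mean was 11.31 and 11.89 on these OVX arrays, against 10.46, 8.78 and 9.16 on the sham arrays.

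Within callus, the mBCSP array of unstated surgery in set C was unlike its mSSC partner for several Hox genes. This array had the highest signal of 12 of 46 Hox probe sets whose signal varied. It was highest by more than 1 on the log2 scale for 5, against 0 such probe sets on each other array. The 12 include Hoxa2 at 6.56, Hoxc13 at 6.50 and Hoxd3 at 6.55, all below the filter level. The like counts over all probe sets were not made, so this position may not be particular to the Hox genes. On it Hoxd10 had 10.38, against at most 7.09 on the other arrays, Hoxb1, an anterior hindbrain gene, 9.43, against at most 6.62, Hoxa3 (1452421_at) 11.62, against at most 9.32, Hoxd9 10.15, against at most 8.68, and Hoxb7 7.63, with the other 16 arrays at the floor. Its mSSC partner was at the floor for Hoxd10, Hoxb1 and Hoxb7 and had 9.14 of Hoxa3 and 8.07 of Hoxd9. Its erythroid marker mean was 12.11, against 7.48 to 11.15 on the other callus arrays and 7.79 to 12.08 on the uninjured arrays, and its Hoxc10 (10.59) and Hoxa10 (8.81) were the lowest of the callus arrays. Without this array 11 of 32 Hox probe sets were called with injury in place of 7, beside 45.6% of all probe sets in place of 36.3%. Without its mSSC partner 4 Hox probe sets were called, beside 30.9% of all. The part of blood cells in these signals was not tested.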

How the data were processed

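Log2 signals of 17 arrays, deposited by the authors in a single table with array medians of 7.66 to 7.88, were quantile-normalised between arrays on the linear scale. The processing notes name MAS5 without a version, while the methods describe RNA after 2 rounds of amplification and analysis with dChip and Gene Expression Commons, and which of these made the deposited log2 values was not settled. Control probe sets (64) were left out, values under log2 5.95 were set to that floor, and a probe set was tested if it reached log2 7.20 on at least 2 arrays. Genes were named by the platform annotation, in which 34945 probe sets had 1 symbol, 932 several and 9160 none.

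Differences were fitted over all 33064 probe sets with limma 3.58.1 in R 4.3.3, and p-values were adjusted by the Benjamini-Hochberg method over all of them, separately in each of 7 comparisons. The injury fit had population and set of title codes as terms and the pair of mSSC and mBCSP arrays as a random block (correlation 0.100, and 0.120 for the interaction). Population was fitted beside the state of each pair (8 pairs), and ovary effects beside population and set, with arrays of conflicting or unstated surgery in groups of their own, over all 17 arrays. The study calls its data biological replicates in general, but the sources used here do not give the mice behind each array, so p-values measure the spread between these arrays, which may be technical in part. Fits that left out an array kept the block correlation of the full fit. The scripts were tested on simulated data. Called members, or the 3 of smallest p where fewer than 3 were called, were given with full statistics, as were up to 4 called genes of a context list. The members and gene lists were chosen with earlier results of these data known. Alternatives changed the normalization, floor, filter, probe set of a gene, terms, block, sets of arrays and left-out arrays.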

Additional observations from a re-analysis of the deposited data

Results flagged for a closer look

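In the 4 sham callus arrays, 3 of 32 Hox probe sets had 1 array far from the other 3 (Dixon's test at 95%), a rule that chance meets in about 1 of 20 groups of like arrays. These arrays mix mSSCs with mBCSPs and set A with set B, so that rate need not hold here. Hoxb13 was at log2 7.21 on the mBCSP array of set A, with the others at 7.53 to 7.55. Hoxc6 (1427361_at) was at 7.16 on the mSSC array of set B, with the others at 7.79 to 7.87. Hoxd13 (1440626_at) was at 7.91 on the mBCSP array of set A, with the others at the floor of 5.95. With the others made equal by the floor, any single array above it meets the rule.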

How the results depend on the processing

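The 7 Hox probe sets called with injury (36.3% of all probe sets) became 1 within set C alone (1.03% of all), 3 for sham callus against sham uninjured bone (20.4% of all) and 14 with the methods' t-test after Benjamini-Hochberg adjustment (44.4% of all). Before that adjustment the t-test gave 16 (52% of all). Leaving out arrays in turn gave 4 to 11, with 4 without the callus mSSC array of unstated surgery (30.9% of all) and 11 without its mBCSP partner (45.6% of all). In the other 6 comparisons 0 Hox probe sets were called under each alternative run, and 0 to 0 with arrays left out. Hoxc10 was called in 15 of 15 alternatives, and Hoxc8 and Hoxa10 in 14, both lost within set C alone, with 2 arrays against 2. Of the smaller calls, Hoxd8 and Hoxc9 were lost in 5 of 15 alternatives each, Hoxb2 in 2 of 14, and Hoxc6 was lost in 7 and turned in sign in 1 of 14. Signs turned with another probe set of the gene for Hoxc6 with injury (-0.11, with 1427454_at), for Hoxc5 between mSSCs and mBCSPs (-0.21) and for Hoxd8 between OVX and sham uninjured bone (0.61), and without the term for the set for Hoxd8 there (0.17) and for Hoxb2 between OVX + E2 and sham callus (0.16). The cause was not tested. OVX against sham uninjured bone could not be estimated without the sham mSSC array of set B, on which the contrast of sham callus with sham uninjured bone rests too. The set A arrays number 1 per state and population, which limits the precision of the ovary contrasts.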
